A study of Mus musculus with 4 samples.

Results

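Podnl1, Apol7b and Acpp are little-studied mouse genes that were chosen by their FPKM values, which were far higher in DNAM-1+ than in DNAM-1- natural killer (NK) cells of both spleens examined. They are 3 of 17723 genes listed in any library, matched to their NCBI Gene numbers by symbol (Podnl1 244550, Apol7b 278679, Acpp 56318, the last also named Acp3). NK cells, innate lymphocytes that kill tumour cells, were sorted from the spleen of C57BL/6J mice by surface DNAM-1, an activating receptor encoded by Cd226, and their total RNA was sequenced on the BGISEQ-500 platform. The 4 groups were DNAM-1+ and DNAM-1- cells of normal spleen (day 0) and of spleen at day 17 after transfer of GFP+ MLL-AF9 acute myeloid leukaemia (AML) cells. Recipients were 6 to 8 weeks old and were not irradiated, so the host kept its own lymphocytes. Each group holds 1 library, and the labels do not say how many mice stand behind it, so the spread between replicates is unknown. Values are the deposited FPKM, fragments per kilobase of transcript scaled to library size, which makes levels comparable between genes of different length. A gene absent from a library's list was taken as 0.

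Podnl1 encodes podocan-like 1, a member of the small leucine-rich repeat proteoglycan family, secreted proteins of the extracellular matrix of which several bind collagen. Apol7b belongs to the apolipoprotein L family, whose human member APOL1 kills trypanosomes by forming pores in their membranes, while the mouse genes have few assigned functions. Acpp encodes prostatic acid phosphatase, known as a secreted enzyme of the prostate and as a membrane-bound ectonucleotidase of sensory neurons, where it turns extracellular AMP into adenosine. Adenosine in turn signals through receptors that restrain lymphocytes, among them the one encoded by Adora2a.

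The sequences just upstream of the annotated starts are shown because the members were chosen for the same difference between the subsets. The RefSeq promoter table of build GRCm38.p6 holds Apol7b and Acpp. Both genes lie on the minus strand, and the 250 bases before the start are printed 5′ to 3′ at chr15:77447461-77447710 (Apol7b) and chr9:104337723-104337972 (Acpp). Capitals mark every match, on either strand, to the 8 short motifs named after the sequences, which belong to lymphoid or general transcription factors.
Apol7b: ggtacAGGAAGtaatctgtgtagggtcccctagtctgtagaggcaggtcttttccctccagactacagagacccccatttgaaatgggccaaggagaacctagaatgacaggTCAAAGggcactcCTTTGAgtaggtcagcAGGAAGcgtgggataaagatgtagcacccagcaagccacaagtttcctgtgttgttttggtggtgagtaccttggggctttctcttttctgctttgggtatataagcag
Acpp: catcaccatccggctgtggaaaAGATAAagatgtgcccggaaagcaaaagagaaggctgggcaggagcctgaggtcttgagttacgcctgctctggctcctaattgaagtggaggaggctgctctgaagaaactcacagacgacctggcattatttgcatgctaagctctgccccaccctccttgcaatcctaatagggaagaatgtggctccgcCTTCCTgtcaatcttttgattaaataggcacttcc
The ETS motif, searched as AGGAAG, was the only one of the 8 found in both windows. It had 2 matches in Apol7b and 1 in Acpp, and 29.5% of all 32851 promoter windows hold at least 1. The Apol7b window also holds the TCF and LEF motif (CTTTGA) at positions -138 to -133 and -125 to -120 from the start, in opposite orientation, and 13.8% of windows hold these letters. The Acpp window holds the GATA motif (AGATAA) once, as do 9.99% of windows. None of the matches overlapped another. The remaining motifs had no match in either window. They were RUNX (TGTGGT, held by 14% of all windows), the T-box motif (AGGTGT, held by 11.8%), AP-1 (TGANTCA, held by 6.75%), STAT (TTCNNNGAA, held by 7.02%) and the TATA box (TATAAA, held by 12.4%). These matches describe letters and say nothing about binding.

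The identity of the cells was checked first. In normal spleen the sorted gene Cd226 had 38.6 FPKM in the DNAM-1+ library and 0.45 FPKM in the DNAM-1- library, beside 36.1 and 0.58 FPKM in AML spleen. All 10 NK markers examined were listed in every library, among them Ncr1, the gene of NKp46, at 383 FPKM or more. The libraries list 15460 to 16161 genes. Their depth, estimated from the smallest steps between values of short microRNA genes, was 8900000 to 9200000 fragments.

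In normal spleen Podnl1 had 10.7 FPKM in the DNAM-1+ library and 0.97 FPKM in the DNAM-1- library. In AML spleen it was at 11.4 and 0.54 FPKM. The DNAM-1+ libraries are the high ones and the DNAM-1- libraries the low ones, as the choice of the gene requires. In DNAM-1+ cells Podnl1 stood above 61.9% (normal) and 62.9% (AML) of protein-coding genes, so it was a transcript of middle abundance there. In DNAM-1- cells it stood above 32.3% and 28.6% of them. Over its coding length of 1680 nt these values correspond to about 165 and 15 fragments in normal and 174 and 8 in AML spleen. The level in DNAM-1+ cells was 11 times that in DNAM-1- cells of normal spleen (95% counting interval 6.27 to 19.4). In AML spleen it was 21 times that of DNAM-1- cells (10.7 to 50.6). These intervals are exact binomial intervals on estimated fragments and cover counting error only. How mice vary is not in them. Podnl1 was chosen by this contrast, so nothing is read from where these intervals lie, and the choice may inflate the ratios. The same holds for the ratios and intervals between the subsets given for Apol7b and Acpp below.

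In normal spleen Apol7b had 7.11 FPKM in the DNAM-1+ library and 0.63 FPKM in the DNAM-1- library. In AML spleen it was at 9.38 FPKM in DNAM-1+ cells and was absent from the list of the DNAM-1- library, so it was taken as 0. The order of the subsets is again the one the gene was chosen for. The ratio in normal spleen was 11.3 (counting interval 5.15 to 33.1, from about 73 and 6 fragments over a coding length of 1110 nt, or 146 and 12 over the longest transcript). No ratio is given for AML spleen, because a gene missing from a list may be one whose reads were not assigned to it.

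In normal spleen Acpp had 5.18 FPKM in the DNAM-1+ library and 0.62 FPKM in the DNAM-1- library. In AML spleen the values were 6.59 and 0.66 FPKM. It was the lowest of the 3 genes in the DNAM-1+ libraries, above 49.1% and 52.9% of protein-coding genes. The ratio was 8.35 in normal spleen (counting interval 3.79 to 21.5) and 9.98 in AML spleen (4.90 to 27.3), with about 7 fragments over the 1254 nt of coding length behind each DNAM-1- value. Over its longest transcript of 4483 nt these values would correspond to about 25 and 27 fragments, and the intervals would be 5.46 to 13.1 and 6.62 to 15.2. The annotation holds coding transcripts of Acpp with 1254 and 1146 nt of coding sequence, and the deposited values are per gene, so the isoform behind the RNA is not known.

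**Figure D1:**
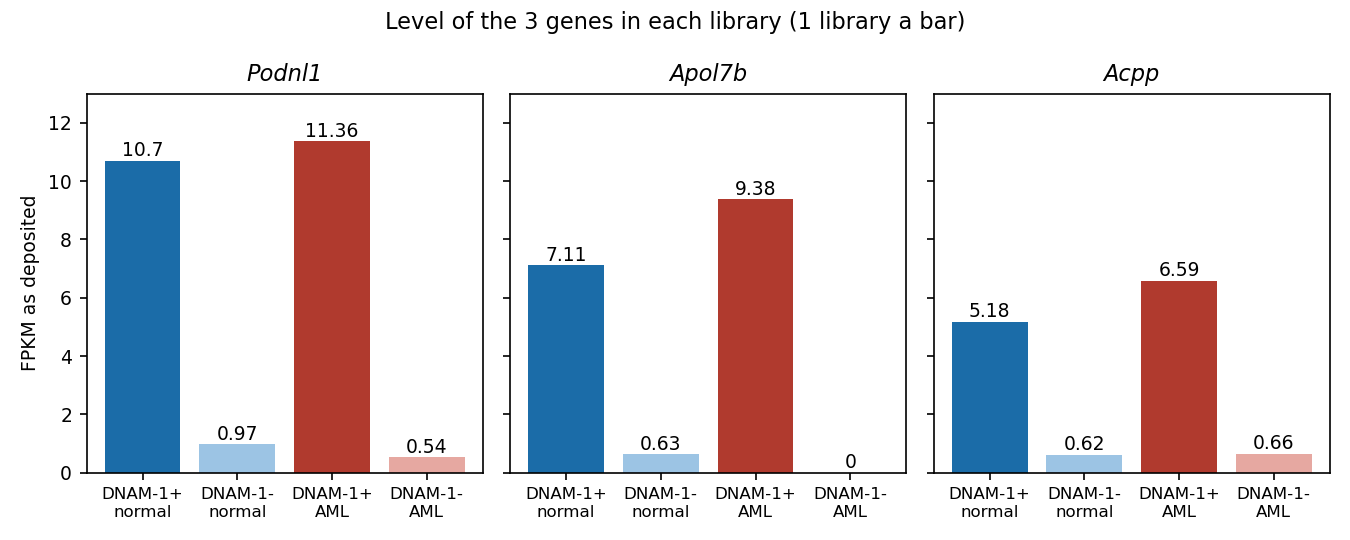
Bars show the deposited FPKM of Podnl1, Apol7b and Acpp (vertical axis, linear from 0) in each of the 4 libraries, with the value above each bar. The DNAM-1+ bars stand at 5.18 to 11.4 FPKM and the DNAM-1- bars at 0 to 0.97 FPKM.

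On the log2(FPKM + 1) scale all 3 genes were past 2-fold toward DNAM-1+ cells in normal spleen, as were 1.28% of 8915 genes, and Podnl1 and Acpp in AML spleen, as were 0.894% of 8839. The contrast chose the genes, so nothing is read from these counts, and with a pseudocount of 5 FPKM Acpp was below 2-fold in normal spleen, at 0.86. Protein-coding genes that reached 5 FPKM in either library of a spleen were ranked by this difference. Podnl1, Apol7b and Acpp were at places 3, 4 and 6 in normal spleen. In AML spleen Podnl1 and Acpp were at places 4 and 7. Apol7b is given no place there, since its DNAM-1- value is a filled-in 0, but with that 0 it stayed in the ranking, ahead of both. What the DNAM-1- cells retained is given as a share of the DNAM-1+ level, beside that of the sorted gene. For the members the shares rest on 15 DNAM-1- fragments or fewer over the coding length, and counting error is not in them. The share of Podnl1 was 9.07% in normal and 4.75% in AML spleen. For Acpp it was 12% and 10%, and for Apol7b 8.86% in normal spleen, with none given in AML spleen, where its DNAM-1- value is the filled-in 0. For Cd226 it was 1.17% and 1.61%. In sorted bulk cells, fewer cells that carry a transcript and less of it per cell cannot be told apart.

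The comparison of AML with normal spleen asks whether leukaemia altered these genes. It is not independent of their choice: a gene picked for a high DNAM-1+ level in each spleen cannot be one that was lost from, or gained in, DNAM-1+ cells with AML. In DNAM-1+ cells each of the 3 was slightly higher in the AML library. The AML to normal ratio of FPKM was 1.06 for Podnl1 (counting interval 0.857 to 1.33). It was 1.32 for Apol7b (0.960 to 1.81) and 1.27 for Acpp (0.888 to 1.81). These intervals, on fragments over the coding length, include 1. On fragments over the longest transcript the interval was 0.872 to 1.29 for Podnl1, 1.05 to 1.64 for Apol7b and 1.06 to 1.53 for Acpp, so the last pair then exclude 1. Whether Apol7b and Acpp differed beyond counting error thus depends on the transcript length assumed, and the spread between mice is in neither interval. None of the 3 reached 2-fold, as 0.311% of 8682 genes did upward and 0.346% downward.

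In DNAM-1- cells the ratio was 0.557 for Podnl1 (counting interval 0.194 to 1.33) and 1.06 for Acpp (0.296 to 3.30), and Apol7b had 0.63 FPKM in the normal library and was absent from the AML list. The intervals are wide because so few fragments lie behind these values. For Podnl1 the order of levels from high to low was DNAM-1+ AML, DNAM-1+ normal, DNAM-1- normal and DNAM-1- AML, and Apol7b had the same order. For Acpp the last pair was exchanged. Within DNAM-1- cells the neighbours of Podnl1 and Acpp in this order did not differ beyond counting error with either length. Within DNAM-1+ cells the same held for Podnl1, while Apol7b and Acpp depended on the length as above. The DNAM-1 difference on the log2(FPKM + 1) scale was larger in AML than in normal spleen by 0.43 for Podnl1 and 0.26 for Acpp, values that have no test with 1 library a group.

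A test over both subsets was possible with limma, fitted to log2(FPKM + 1) with additive terms for the subset and the spleen. Its 1 residual degree of freedom is the interaction of the factors, moderated across genes. For AML against normal, the log2 estimate of Podnl1 was -0.14 (SE 0.22, limma adjusted p = 0.839). That of Apol7b was -0.17 (SE 0.37, limma adjusted p = 0.887, with the DNAM-1- AML library entered as 0 FPKM), and that of Acpp 0.17 (SE 0.31, limma adjusted p = 0.870). None of the 3 was called, at an adjusted p of 0.05 or at an unadjusted one, with or without limma's mean-variance trend. Of 9074 genes tested, 32 were called for AML, or 0.353%, so a count of 0 among 3 genes says nothing particular about them.

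**Figure D2:**
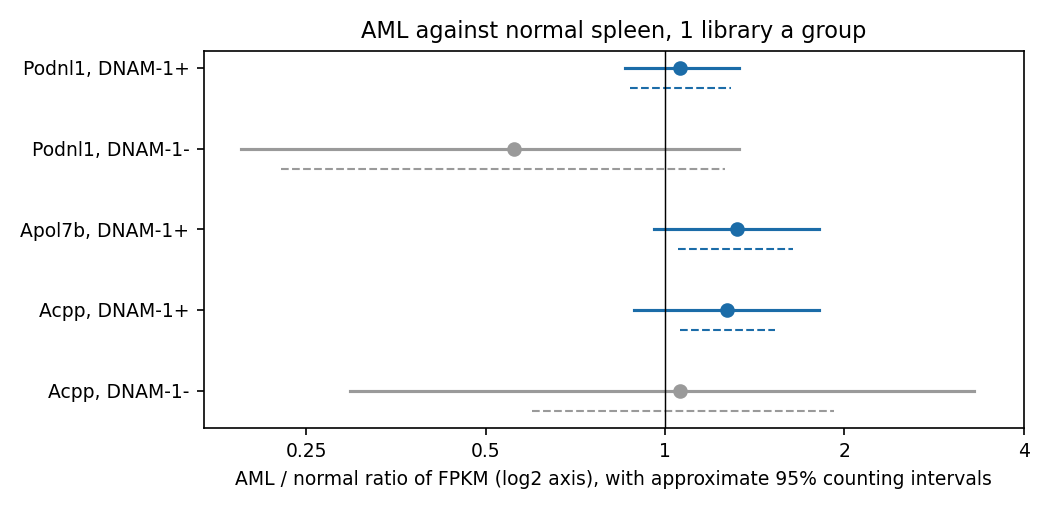
Points show the AML to normal ratio of FPKM on a log2 axis for each gene and subset (blue DNAM-1+, grey DNAM-1-), with lines for the approximate 95% counting interval on fragments over the coding length (solid) and the longest transcript (dashed). All 5 solid lines include 1, the dashed lines of Apol7b and Acpp in DNAM-1+ cells start at 1.05 and 1.06, and Apol7b in DNAM-1- cells is left out because it is absent from the AML list.

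The value of Apol7b needs its paralogs beside it. In the GENCODE M21 transcripts, 1647 of the 2178 windows of 50 nt in the longest coding transcript of Apol7b (75.6%) also occur in a transcript of another gene. Apol7e, a close relative, holds 73.4% of the 2178 windows, and 56.9% of windows of 100 nt. Reads from such stretches cannot be placed on either gene by sequence alone. Podnl1 and Acpp share no window of either length with any other gene.

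Apol7e itself was the most abundant apolipoprotein L gene. It had 70.4 FPKM in the DNAM-1+ and 42.8 FPKM in the DNAM-1- library of normal spleen, beside 58.4 and 39.7 FPKM in AML spleen. Its log2 level rose by 0.63 in DNAM-1+ cells (SE 0.07, limma adjusted p = 0.00211), and it was higher in each spleen. With no floor on low values limma called no gene at all for the subset, and the adjusted p was 0.123 for Apol7e and 0.119 to 0.258 for the family and pathway genes called below. The sum of Apol7b and Apol7e was 77.5 FPKM in DNAM-1+ and 43.4 FPKM in DNAM-1- cells when the spleen was normal, then 67.8 and 39.7 FPKM with AML. In that order of libraries Apol7b made up 9.18%, 1.45%, 13.8% and 0% of that sum. In both spleens the sum was thus higher in DNAM-1+ cells, by 0.82 and 0.76 on the log2(FPKM + 1) scale, a far smaller difference than that of Apol7b alone. Taken over every listed Apol7 gene, the AML against normal difference in DNAM-1+ cells was -0.20, where Apol7b alone gave 0.36. How much of the Apol7b value rests on reads placed between these paralogs was not tested.

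Of the 12 other apolipoprotein L genes, 9 were listed and only Apol7c and Apol7e reached 1 FPKM in any library. Apol7c was at 1.00, 1.79, 0.39 and 1.63 FPKM in the same order, which is higher in DNAM-1- cells, the opposite of Apol7b. The other 7 (Apol6, Apol8, Apol9a, Apol9b, Apol10a, Apol10b and Apol11b) lay between 0 and 0.53 FPKM, and Apol7a, Apol7d and Apol11a were not listed. With Apol7e the only gene high enough to be tested, limma called 1 of 1 higher in DNAM-1+ cells, against 7.35% of all genes tested, and 0 lower, against 8.38%.

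**Figure D3:**
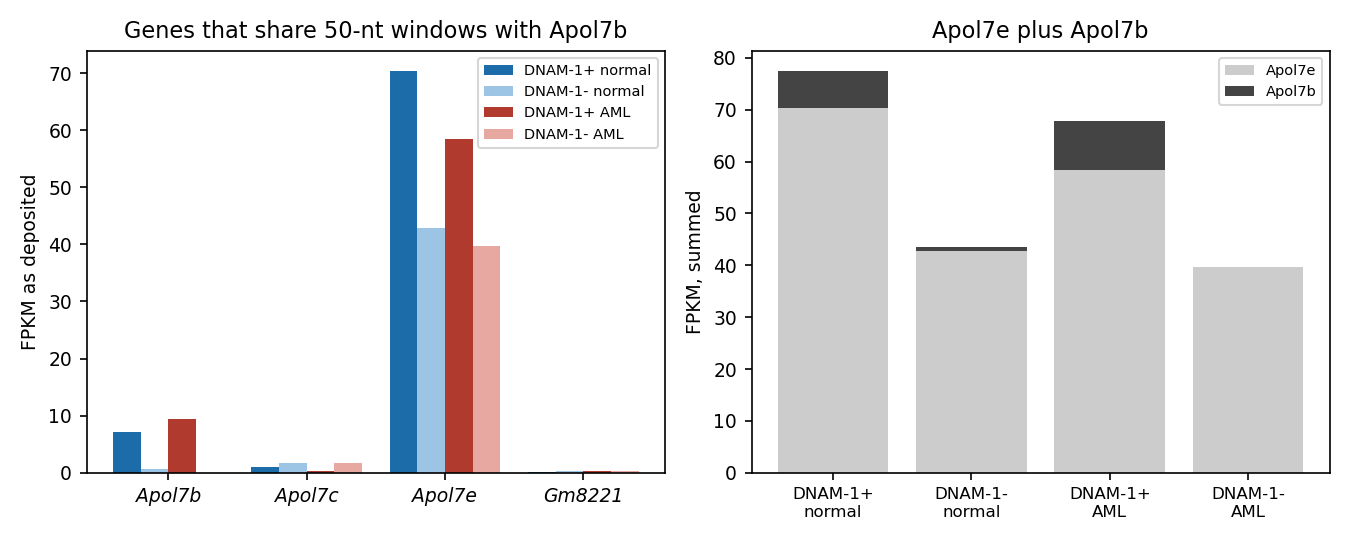
On the left, bars show the deposited FPKM of Apol7b and of the listed genes that share 50-nt windows with it in the 4 libraries. On the right, stacked bars show Apol7e (grey) plus Apol7b (black), whose sum is 77.5 and 67.8 FPKM in DNAM-1+ and 43.4 and 39.7 FPKM in DNAM-1- cells.

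Podnl1 stood apart in level from most of its family. Of the 17 other small leucine-rich repeat proteoglycan genes, 12 were listed and 2 reached 1 FPKM. Podn, the gene of podocan and its closest relative by name, was at 0.05 to 0.16 FPKM in every library. Decorin (Dcn), biglycan (Bgn) and asporin (Aspn), which stromal cells are known to make, stayed at or below 0.50 FPKM, and lumican (Lum) was not listed. Nyx, the gene of nyctalopin, known from the retina, had 36.8 FPKM (DNAM-1+) and 31.4 FPKM (DNAM-1-) in normal spleen, then 31.1 and 23.5 FPKM with AML. Its log2 level rose by 0.31 in DNAM-1+ cells (SE 0.07, limma adjusted p = 0.0369, 0.111 without the mean-variance trend). Omd, the gene of the bone proteoglycan osteomodulin, was at 4.67 against 10.2 and 5.16 against 7.12 FPKM. It fell by a log2 difference of 0.69 (SE 0.16, limma adjusted p = 0.0365, 0.0866 without the trend). The 2 tested relatives thus went in opposite directions, and neither call held without the trend or with a floor of 1 FPKM (limma adjusted p = 0.0674 for Nyx and 0.0678 for Omd).

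Collagens and collagen receptors were examined as partners of this protein family. The 8 fibrillar collagen genes of the list were at or below 0.40 FPKM in every library except Col11a2, at 2.57 to 3.61 FPKM. Among the 4 genes tested, 2 rose and 1 fell in DNAM-1+ cells, where 7.35% of all genes tested rose and 8.38% fell. The collagen-binding integrin chain gene Itga1 rose by 1.33 (log2; SE 0.26, limma adjusted p = 0.0194), from 1.13 to 5.36 FPKM in normal and from 1.99 to 5.34 in AML spleen. Itga1 reached the 5 FPKM needed for the test only in DNAM-1+ libraries. Its partner chain Itgb1 rose by 0.36 (SE 0.06, limma adjusted p = 0.0132, 0.0693 without the trend). The inhibitory collagen receptor gene Lair1 fell by 0.60 (SE 0.09, limma adjusted p = 0.00658), at 8.30 against 13.98 and 8.50 against 12.6 FPKM. Itga2, another integrin chain, was at 55.9 to 67.3 FPKM in all libraries and was not called. The median difference of the 6 genes at 1 FPKM or more was -0.06 in normal and 0.01 in AML spleen, beside -0.002 and 0.004 for all genes.

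The other acid phosphatase genes were read beside Acpp. Of the 8 other genes of the list, 6 were listed and tested, and limma called 0 of them in either direction for the subset. Of all genes tested 7.35% rose and 8.38% fell, so a count of 0 among 6 says nothing particular about this family. The smallest adjusted p in limma, 0.0573, was that of Acp5, the tartrate-resistant enzyme of osteoclasts and macrophages. It had 41.4 against 50.3 FPKM in normal spleen, then 36.5 against 41.98 with AML. The lysosomal enzyme gene Acp2 had 6.25 against 8.37 FPKM, then 6.09 against 7.56 (limma adjusted p = 0.105). Acp1, Acp6, Pxylp1 and Minpp1 lay between 6.73 and 16.3 FPKM, with adjusted p-values of 0.208 to 0.851 in limma. The median log2 difference of the 6 was -0.17 in both spleens.

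The genes that make, break down or sense extracellular ATP and adenosine were read beside Acpp because its product acts on AMP. Of 22 such genes 12 reached 1 FPKM, and of the 8 tested 1 rose (7.35% of all genes) and 3 fell (8.38% of all genes) in DNAM-1+ cells. Ada, which breaks adenosine down, rose by 0.60 (log2; SE 0.13, limma adjusted p = 0.0245), with 7.75 against 5.05 FPKM in normal spleen and 7.46 against 4.34 FPKM with AML. Entpd1, the gene of CD39, which turns ATP into AMP, fell by 0.45 (SE 0.07, limma adjusted p = 0.00904), with 12.8 against 18.4, then 14.6 against 19.7 FPKM. Dpp4, the gene of CD26, a peptidase that in humans binds adenosine deaminase, fell by 1.35 (SE 0.12, limma adjusted p = 0.000961), at 3.49 against 11.5 and 3.97 against 10.6 FPKM. The ATP-gated channel gene P2rx4 fell by 1.00 (log2, SE 0.18, limma adjusted p = 0.0156), at 2.45 against 5.92 and 2.50 against 5.95 FPKM. Dpp4 and P2rx4 reached the 5 FPKM needed for the test only in DNAM-1- libraries.

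Nt5e, the gene of CD73, the enzyme usually credited with making adenosine from AMP, was below the level needed for the test. Its FPKM was 3.64 in the DNAM-1+ and 2.81 in the DNAM-1- library of normal spleen, with 3.08 and 2.38 for AML. On the FPKM scale Acpp was the higher of these 2 AMP-hydrolysing genes in DNAM-1+ cells and the lower in DNAM-1- cells. Acpp was chosen for its difference between the subsets, so nothing is read from this exchange. Its DNAM-1- values rest on about 7 fragments over the coding length. Alpl, the alkaline phosphatase gene that can also act on AMP, stayed at or below 1.19 FPKM. The adenosine receptor gene Adora2a had 43.2 against 38.7 FPKM, then 51.8 against 41.3 (limma adjusted p = 0.0734), while Adora1, Adora2b and Adora3 stayed at or below 0.67 FPKM. B cell and monocyte genes were far higher in the DNAM-1- libraries (below), and their part in the falls of Entpd1, Dpp4, P2rx4 and Lair1 was not tested.

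The genes whose profile over the 4 libraries was most like each member were ranked by the root mean square difference between profiles of log2(FPKM + 1), each centred on its own mean. Podnl1 and Apol7b were each other's nearest among 8657 other protein-coding genes that reached 5 FPKM, at a distance of 0.16 on the log2 scale. Both were chosen for the same difference between the subsets, so nothing is read from this nearness. The distances of Apol7b enter its absence from the DNAM-1- AML list as 0 FPKM, a value in doubt. Cd200r1, an inhibitory receptor gene, came next for both, at 0.34 and 0.42. Its own levels were 5.31, 0.61, 5.43 and 0.35 FPKM, with DNAM-1+ before DNAM-1- cells and normal spleen before AML. Cd3e, the CD3 epsilon chain (0.39 and 0.46), Tgtp1, an interferon-inducible GTPase with a close paralog (0.46 and 0.46), and Acpp (0.40 and 0.47) completed the 5 nearest of each.

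Acpp had nearer neighbours of its own. Cd200r1 was at a distance of 0.14, and Trat1, a T cell receptor adaptor gene at 5.93, 1.03, 6.17 and 0.85 FPKM, at 0.15. Cd3e followed at 0.17, then the Helios gene Ikzf2 at 0.19 and the NK receptor gene Klrb1b at 0.22. Klrb1b was at 178, 51.4, 196 and 63.6 FPKM, so alike profiles here span very different levels. The median distance of all other genes was 1.03 for Acpp, 1.39 for Podnl1 and 1.44 for Apol7b. The members were chosen for a large difference between the subsets, so their nearness to each other and their distance from most genes also follow from the choice. Apart from Klrb1b, the other genes named here and above as near reached 5 FPKM only in DNAM-1+ libraries. With 4 libraries these distances are a description and carry no test.

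**Figure D4:**
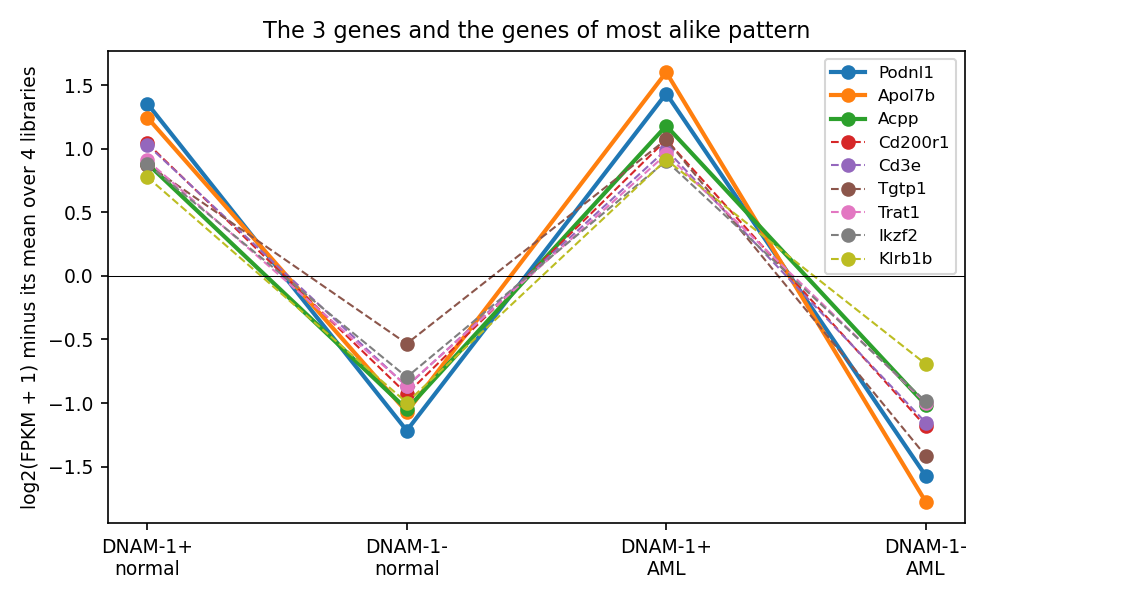
Lines join the 4 libraries for Podnl1, Apol7b and Acpp (solid) and for the genes of most alike profile (dashed), as log2(FPKM + 1) minus the mean of each gene. Every line is above 0 in the DNAM-1+ libraries and below 0 in the DNAM-1- libraries, with Klrb1b and Ikzf2 nearer to 0 than Podnl1 and Apol7b.

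Markers of other cell types moved between the subsets as well. The share of all genes that go 1 way in both spleens is not given, so counts by direction are a description. All 8 genes known from ILC1 and tissue-resident cells stood higher in the DNAM-1+ library of either spleen, with summed levels of 136 and 133 FPKM in DNAM-1+ against 31.6 and 33.6 in DNAM-1- libraries. Of 10 listed T cell markers 7 were higher and 1 was lower in both, with sums of 98.5 and 88.3 against 48.2 and 44.7 FPKM. Among them Cd3e was at 9.22 and 8.95 against 1.74 and 1.25 FPKM, Cd4 stayed at 0.75 to 1.38 FPKM in all libraries, and Trac was not listed. The marker that was lower in both was Cd8b1, at 2.28 and 0.67 against 5.32 and 2.11 FPKM. Cd8a was mixed, at 3.7 and 2.88 against 2.17 and 2.92 FPKM. Cd200r1, Itga1, Trat1 and Cd3e, named above, belong to these 2 lists. Most markers of both lists went in the direction of the 3 genes. limma called 6 of 6 tested ILC1 genes and 4 of 6 tested T cell genes higher in DNAM-1+ cells, and 0 lower. Of all genes tested 7.35% rose and 8.38% fell. However, Cd200r1, Itga1, Tnfsf10, Gzmc, Cd3e and Trat1 reached the 5 FPKM needed for the test only in DNAM-1+ libraries. Cd8b1 reached it only in a DNAM-1- library. Such genes entered through the subset where they were high, so nothing is read from these counts. The part of these lists in the result was not tested.

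Most markers of B cells, plasma cells, monocytes, red pulp macrophages and neutrophils went the other way. limma called lower 10 of 10 tested B cell, 4 of 5 plasma cell and 8 of 10 monocyte genes. It also called lower 7 of 7 tested red pulp macrophage and 5 of 6 neutrophil genes, and 1 monocyte gene higher. Of all genes tested 8.38% fell and 7.35% rose. Some of these markers, such as Ebf1 and Adgre1, reached the 5 FPKM needed for the test only in DNAM-1- libraries, so the counts are a description. All 10 B cell markers were lower in DNAM-1+ cells of both spleens, with sums of 224 and 248 against 1081 and 1041 FPKM. Of the monocyte markers 9 of 10 were lower, with sums of 415 and 489 against 976 and 952 FPKM, and so were all 10 red pulp macrophage markers. Podnl1, Apol7b and Acpp were low in the DNAM-1- libraries, where most of these markers were higher. Podnl1, Apol7b and Acpp were chosen for being low there, so nothing is read from this opposition. Of the 10 stromal and endothelial markers 9 were listed, and apart from Pecam1, which lymphocytes also express, none exceeded 0.25 FPKM. Plasma cell markers also went this way, with 6 of 7 lower and sums of 73.3 and 79.4 against 211 and 319 FPKM. So did 9 of 10 neutrophil markers, with sums of 134 and 103 against 194 and 165 FPKM.

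NK markers went with the 3 genes in 7 of 10 cases, Cd7 most of all at 510 and 616 FPKM in the DNAM-1+ against 209 and 255 in the DNAM-1- libraries, and 1 marker went the other way in both spleens. Of the 8 leukaemia-associated and progenitor genes, all listed, 2 were higher in DNAM-1+ cells in both spleens and none was lower in both. Their summed level was 19.6 and 28.2 FPKM in DNAM-1+ against 9.16 and 12.2 FPKM in DNAM-1- cells, normal spleen before AML. Most of that sum was Kit, a receptor gene of progenitors and some lymphoid cells, at 17.9 and 25.3 against 7.86 and 9.78 FPKM. Apart from Kit and Meis1, these genes stayed at or below 0.58 FPKM, among them Hoxa9 at 0.32 and 0.18 FPKM in the AML libraries and 0.04 in the normal ones, while Hoxa10 and Mn1 stayed at or below 0.05 FPKM. The part of these lists in the result was not tested.

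Genes that flank the members did not share their pattern. The 3 nearest protein-coding genes on each side of Podnl1 were Rln3, Rfx1, Dcaf15, Cc2d1a, 4930432K21Rik and Nanos3. Cc2d1a, which lies next to it on the opposite strand, was at 27.5, 26.0, 26.0 and 23.0 FPKM in the same order, and Rfx1 at 22.8, 23.0, 22.7 and 22.6. The spans of Podnl1 and Cc2d1a overlap in the RefSeq gene table, while in GENCODE M21 they share no exon base and lie 300 bases apart. Whether reads were counted by strand is not given in the sources used here. Whether reads of Cc2d1a enter the Podnl1 values was not tested.

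Around Acpp, Dnajc13 was at 20.03, 19.4, 17.6 and 18.7 FPKM and Mrpl3 at 25.5, 18.9, 23.6 and 20.7, while Cpne4 was not listed. Acad11, Ackr4 and Nudt16 differed between subsets by -0.19 to 0.29 on the log2(FPKM + 1) scale. The neighbours of Apol7b are Rbfox2 and 5 of its own relatives (Apol7a, Apol9a, Apol10a, Apol11a and Apol7c), of which Apol7c alone reached 1 FPKM. No exon base of Podnl1, Apol7b or Acpp is shared with an exon of another gene in that annotation.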

How the data were processed

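Values are FPKM per gene as deposited, per the file headers, with 1 file a library, 2 columns and genes at 0 left out; a gene absent from a list was taken as 0. Bowtie2 2.2.5 and RSEM appear, without roles, in the submitters' processing notes, and the genome build and annotation are not given in the sources used here. Gene numbers were paired with symbols from the RefSeq table of GRCm38.p6 (17668 matched, 55 did not), and transcripts came from GENCODE M21. Depth was estimated from values of microRNA genes of 55 to 100 nt, less an offset of 36 nt, taken as multiples of up to 6 reads; 90.3% to 93.9% of them lay within 0.1 step of a whole number. Fragments behind a value are the FPKM times coding length and depth, with the longest transcript as an alternative, and counting intervals are exact (Clopper-Pearson) at 95%. Differences are of log2(FPKM + 1), which understates the change of low genes. limma 3.58.1 (R 4.3.3) with trend was fitted to genes that reached 5 FPKM in some library. Its two-sided tests used a threshold of 0.05 on Benjamini-Hochberg adjusted p. It was tested on simulated data. The subset term was not used to test the 3 members. Counts at 2-fold need 5 FPKM in the higher library, and lists were summarised over genes that reached 1 FPKM. The 5 FPKM floor of limma lets a low gene enter through 1 subset alone, and calls of such genes partly follow from it.

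The members, lists, motifs and named genes were chosen with earlier results of these data known. The rule for named genes took the members; Cd226, Ncr1, Klrb1c and Ptprc (the last pair not needed here); Podn, the Apol genes and the acid phosphatases in full; other list genes called by limma or at least 2-fold apart in both spleens; the 5 most alike profiles; 3 neighbours on each side; and defining markers. Outside it, Nt5e, Adora1, Adora2a, Adora2b, Adora3, Alpl, Itga2, Dcn, Bgn, Aspn, Lum and Col11a2 are named for their role, after their values were seen. The windows of 50 and 100 nt were added after the data were seen. The labels show no separate mice and no group has a second library, so no spread between replicates enters the p-values. They rest on the interaction of subset and spleen as the residual, moderated across genes. Alternatives were other pseudocounts, floors, scaling, no trend, protein-coding genes alone and the sum of the Apol7 genes.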

Additional observations from a re-analysis of the deposited data

Results flagged for a closer look

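In 2 of the 3 genes the AML and normal libraries differed in opposite directions in the subsets. Podnl1 was higher in AML by 0.66 FPKM in DNAM-1+ cells and fell by 0.43 FPKM in DNAM-1- cells. Apol7b was higher in AML by 2.27 FPKM in DNAM-1+ cells and fell by 0.63 FPKM, to a value absent from the list and taken as 0, in DNAM-1- cells. Neither difference between the subsets was tested, since each group holds 1 library, and the low values rest on 15 fragments or fewer over the coding length.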

How the results depend on the processing

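No paired analysis was possible because each group holds 1 library and the labels number no replicates. For the same reason no library could be left out. Apol7b has no value in the 2 contrasts that involve the library from which it is absent. Of 32 differences of the members under another pseudocount, scaling or sum, 26 moved by less than counting error. Of 18 limma terms for AML, 17 kept their sign and stayed uncalled. The estimate, and so its sign, could change only with another pseudocount, since the trend, the floor and the gene set leave it as it is. With a pseudocount of 5 FPKM the DNAM-1 difference of Podnl1 was 1.40 in normal (2.57 with 1 FPKM) and 1.56 in AML spleen (3.005), that of Apol7b in normal spleen 1.105 (2.31), and that of Acpp 0.857 in normal (1.93) and 1.034 in AML spleen (2.19), because a larger pseudocount shrinks low values. The limma AML term of Apol7b turned to 0.038 with that pseudocount. The sum of the Apol7 genes gave 0.78 for the DNAM-1 difference in normal spleen (2.31 for Apol7b) and -0.20 for AML against normal in DNAM-1+ cells (0.36). Counting fragments over the longest transcript, an alternative chosen after seeing the data, took the intervals of the AML differences in DNAM-1+ cells past 0 for Apol7b (0.356) and Acpp (0.296). The adjusted p of the members' limma AML terms ranged from 0.586 to 0.948.

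Counts over all genes moved more, and the cause was not tested. limma called 6 genes higher and 26 lower in AML. It called 1 and 4 without the trend, 18 and 51 with a floor of 20 FPKM, 26 and 81 among protein-coding genes and 0 and 0 with no floor, where 1269 genes had an unadjusted p below 0.05. Lower calls in AML were 5 with a floor of 1 FPKM and 17 with a pseudocount of 5 FPKM. For DNAM-1+ it called 667 higher and 760 lower, 321 higher without the trend, 434 lower with a floor of 20 FPKM, and 0 and 0 with no floor. With a pseudocount of 5 FPKM, genes past 2-fold in favour of DNAM-1+ cells were 39 in normal (114) and 40 in AML spleen (79), and 161 were lower in AML spleen (282). The AML counts of lower genes were then 18 for the DNAM-1+ subset (30) and 17 for the other (35). Among protein-coding genes alone, 3 were higher and 11 lower in AML in DNAM-1+ cells (27 and 30), and 2 and 17 in DNAM-1- cells (17 and 35). Depth limits the DNAM-1- values most, at 8 to 15 fragments for Podnl1, 0 to 6 for Apol7b and 7 for Acpp over the coding length, or 10 to 18, 0 to 12 and 25 to 27 over the longest transcript.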
